A study of Homo sapiens with 22 samples.

Results

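RNA sequencing of the HT1080 KDAC6H611A line was set against that of the unedited wild-type (WT) parent. HT1080 is an established line grown from a human fibrosarcoma. All columns labelled KDAC6H611A and untreated WT were used, 4 libraries of each, making 8 of the 22 libraries of the series. In the KDAC6H611A line, a catalytic histidine of KDAC6 (lysine deacetylase 6, gene HDAC6) was replaced by alanine in the endogenous gene, the change written H611A. The other groups were HT1080 KDAC6H216A, with the matching change in the first catalytic domain, HT1080 KDAC8H143A, and WT cells given 1 µM Tubastatin A or 5 µM PCI-34051 for 2 days, with 4, 4, 3 and 3 libraries. WT and mutant cells were untreated, and all cells were grown in MEM with serum. Edited cells were taken from single colonies with CRISPR/Cas9 and a repair template. For KDAC6H216A, the study pooled 3 independent lines. Its methods do not give the number of colonies behind the KDAC6H611A libraries. An effect of the mutation and a property of a colony therefore cannot be told apart, and the 4 libraries are repeats of a line, not of the editing.

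KDAC6 is a mainly cytoplasmic enzyme with a pair of catalytic domains and a zinc finger that binds ubiquitin. It removes acetyl groups from α-tubulin, cortactin and the chaperone HSP90, and it is known for roles in microtubule and actin dynamics, cell movement and the transport of misfolded protein to the aggresome. RNA levels do not report acetylation, so the comparison asks which transcripts differed in cells whose second catalytic domain was inactivated.

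The reference sequence around the targeted codon is shown because it is the change that defines the line. On GRCh38, the codon lies at chrX:48817365-48817367 on the plus strand, in exon 20 of the HDAC6 transcript. The bases shown are chrX:48817335-48817397, 5′ to 3′, with the codon of that histidine in capitals.
HDAC6 catalytic histidine: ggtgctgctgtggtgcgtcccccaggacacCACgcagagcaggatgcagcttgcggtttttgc
HDAC6 itself was measured at 9.1, 15.1, 14.4 and 12.5 CPM (counts per 1000000 counts of a library, scaled by TMM factors) in WT and at 12.8, 12, 9.3 and 14.3 CPM in KDAC6H611A. The groups overlapped, with a log2 fold change of -0.10 ± 0.18 (SE) and an adjusted p of 0.747. Every adjusted p given here comes from the quasi-likelihood test of edgeR, with the Benjamini-Hochberg method applied to all genes of the fit, and a gene was called changed under 0.01. Gene counts do not show the edited base, so they could not check the genotype beyond this level.

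Total counts ran from 5248953 to 8998474 in WT and from 7324519 to 12752463 in KDAC6H611A. Replicate 2 of KDAC6H611A stood apart, with rank correlations of 0.9515 to 0.9713 with its group against 0.9889 to 0.9932 among the WT libraries, and mitochondrial rRNA made up 38.0% of its counts and 0.173% of those of replicate 4, compared with 20.8% to 24.5% in the other 6 libraries. Of the mesenchymal markers, VIM was at 3500 ± 139 CPM in WT and 2760 ± 544 CPM in KDAC6H611A, and CD44 at 944 ± 21.9 and 791 ± 112 CPM (SD, n = 4), and FN1 at 602 to 703 CPM in WT and 242 to 519 CPM in KDAC6H611A. ENG was at 69.1 to 89.1 and 74.6 to 105 CPM, and S100A4 at 0.332 to 0.891 and 0.973 to 2.89 CPM. COL1A2 had 10 to 29 counts in the WT libraries and 0 to 2 in KDAC6H611A, and COL3A1 had none in WT and at most 1 in KDAC6H611A. S100A4, COL1A2 and COL3A1 did not pass the filter on low counts and were not tested. Of the endothelial markers, TIE1 rose by 0.60 on the log2 scale and 1 other was tested. None of the 7 tested mesenchymal, 4 epithelial, 3 neuronal, 2 blood or 1 muscle markers was called by edgeR, whereas 1 mesenchymal and 1 muscle marker were higher and 2 mesenchymal markers lower at an unadjusted p under 0.05 and DESeq2 called 1 mesenchymal marker lower. Without KDAC6H611A replicate 2, 2 mesenchymal markers were called in each direction and 1 epithelial marker higher. Leaving out any WT library or KDAC6H611A replicate 1 ended the call of TIE1, and the neuronal markers DCX, ELAVL3, ELAVL4, INA, STMN2 and SYN1 were at or under a floor of 3 counts in every KDAC6H611A library. The summed level of the 13 neuronal markers was 118 to 138 CPM in WT and 84.5 to 138 CPM in KDAC6H611A. The melanocytic markers MITF and PMEL rose, by 1.38 ± 0.16 and 1.94 ± 0.41 on the log2 scale (adjusted p = 6.1e-05 and 0.00495), and SOX10 and TYR were at or under the floor. DCT and MLANA were tested and not called, and 1 of the 2 rises was in a chromosome region, described below, whose median was higher.

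Of 14725 genes tested, 1814 (12.3%) were changed in KDAC6H611A, 895 higher (6.08%) and 919 lower (6.24%). The rises were larger: 472 genes rose and 266 fell by at least 1 on the log2 scale. The median over all genes tested was 0.03. With libraries scaled by total count only, the split was 549 higher and 364 lower. Among all genes tested, called or not, 27.2% had groups that did not overlap, which is the background for each such statement here. In bulk RNA, fewer cells of a kind and less RNA per cell cannot be told apart.

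Several genes fell from a clear level in WT to none or to a small part of it. EPB41L3, which encodes a band 4.1 protein that links membrane proteins to actin, was at 167, 171, 171 and 161 CPM in WT and had no counts in any KDAC6H611A library. Against a floor of 3 counts per library, it was at least 477-fold lower (adjusted p = 1.97e-09). FLNC, the gene of the actin crosslinker filamin C, was at 129, 141, 137 and 142 CPM in WT and at 0, 0.162, 0.321 and 0.313 CPM in KDAC6H611A, a fall of -9.20 ± 0.22 on the log2 scale (adjusted p = 1.24e-10). The mutant values of FLNC rest on few reads, so this SE understates the error in the size of the fall. SERPINB5, the serpin maspin, was between 14.6 and 15.7 CPM in WT and had no counts in the mutant, at least 43.0-fold lower. MYH10, the heavy chain of nonmuscle myosin IIB, fell from 68.3, 66.0, 77.7 and 74.8 CPM to 5.86, 6.16, 5.69 and 5.12 CPM, a change of -3.66 ± 0.11 (adjusted p = 1.3e-09). None of these 4 genes overlapped between the groups, but lack of overlap was a condition for naming them and is no separate support. The KDAC6H611A libraries lay close together for each.

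Further genes went from a measured level to none or nearly none. CD9, a tetraspanin of the plasma membrane, was at 5.46 to 7.35 CPM in WT, and PDPN, the membrane mucin podoplanin, at 2.55 to 3.25 CPM, and neither had a count in KDAC6H611A, for at least 18.7-fold and 8.19-fold lower levels. EDNRA, the endothelin receptor type A, was at 6.35 to 8.97 CPM in WT and at 0 in 3 of the 4 mutant libraries. BEX1 and PLXDC2 likewise had counts in 1 mutant library each, and their levels were at least 23.3-fold and 17.7-fold lower. LINC00488, a long noncoding RNA, and CDR1-AS had none. Whether reads were counted by strand is not given in the sources used here, so reads of CDR1-AS and of its sense partner cannot be told apart. In all, 18 genes (0.122% of those tested) were lost, meaning called lower with at most 3 counts in every KDAC6H611A library. Their mean in WT had to be at least 1 CPM. By the mirrored rule, 32 (0.217%) were gained. Such genes passed the filter on low counts only through the group where they were high. The direction of their calls was therefore fixed in advance, and their adjusted p-values and shares are no separate support.

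**Figure D1:**
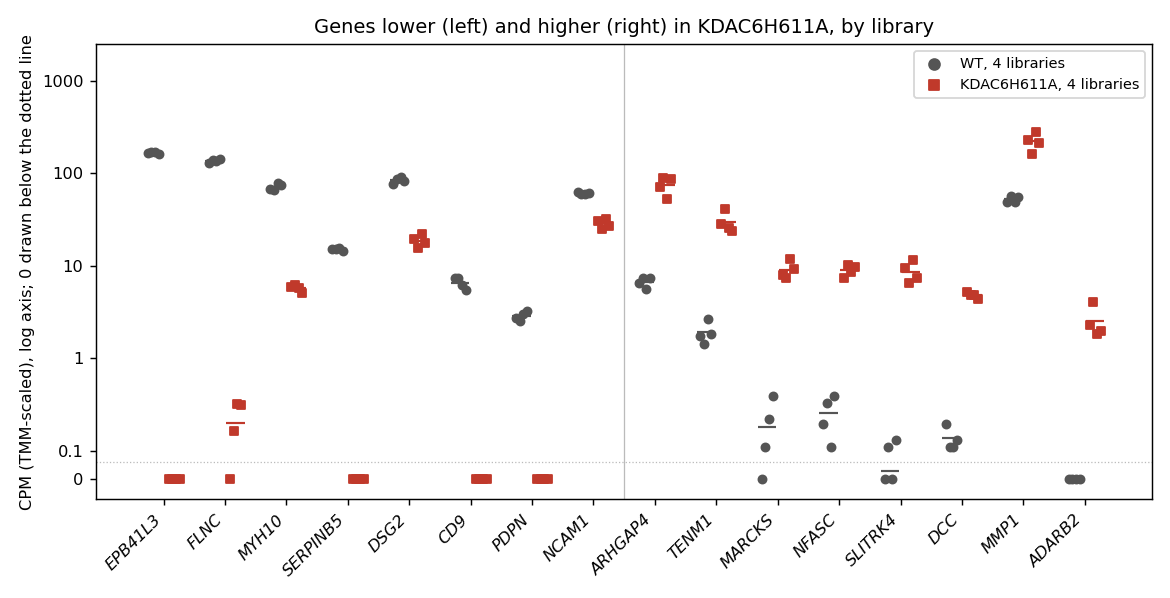
Level in CPM on a log axis (0 drawn below the dotted line) of 8 genes lower and 8 genes higher in KDAC6H611A, with 1 point per library, 4 WT and 4 KDAC6H611A libraries per gene, and the group mean as a bar. The groups are apart for every gene because lack of overlap was a condition for naming them. EPB41L3, SERPINB5, CD9 and PDPN have no counts in the mutant.

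The gained genes included cell surface proteins known from neurons. SLITRK4, a transmembrane protein that organises synapses, was at 0, 0.111, 0 and 0.13 CPM in WT and at 9.4, 6.49, 11.5 and 7.31 CPM in KDAC6H611A, at least 21.2-fold higher (adjusted p = 1.34e-06). NFASC, the gene of the axonal adhesion molecule neurofascin, was at 0.194, 0.332, 0.111 and 0.39 CPM in WT and at 7.44, 10.1, 8.57 and 9.72 CPM in the mutant, at least 21.9-fold higher (adjusted p = 5.96e-07). DCC, the netrin receptor of growing axons, was at 0.111 to 0.194 CPM and at 5.25, 4.86, 4.81 and 4.39 CPM, at least 11.8-fold higher. ADARB2, an RNA-binding relative of the editing enzymes found in brain, had no counts in WT and 1.84 to 4.05 CPM in KDAC6H611A. ISL1, a homeobox factor of motor neurons among other cells, was at least 5.03-fold higher at 2.06 ± 0.298 CPM. The 4 mutant libraries all lay above the 4 WT libraries for each gene, but this was a condition for naming them and is no separate support.

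MARCKS, a membrane protein that binds actin and phosphoinositides, was gained too, from 0, 0.111, 0.223 and 0.39 CPM to 7.93, 7.3, 11.8 and 9.3 CPM (at least 22.2-fold, adjusted p = 1.94e-06). The other largest rises were LINC00645 (at least 10.2-fold), CPVL, a serine carboxypeptidase-like protein (8.87-fold), ZNF790 (6.1-fold) and TMEM179 (4.41-fold), each as a lower bound, together with HEPH, a copper-containing ferroxidase, which rose from 0.171 ± 0.19 to 7.49 ± 1.14 CPM. PAGE2 rose from 0.603 ± 0.421 to 33.4 ± 6.95 CPM, but it has near-identical copies among which the counting can divide reads.

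The 250 bases before the start are shown for FLNC and MYH10 (lower) and MARCKS and DCC (higher), 4 of these genes with 1 start in the RefSeq promoter table (GRCh38.p14), so that the stretches of genes that moved in opposite directions can be set side by side. Capitals mark GGGCGG, the motif of SP1 factors, TGANTCA, that of AP-1, and GGAATG, that of TEAD factors, on either strand. Matches that adjoin or overlap form 1 run of capitals.
FLNC, chr7:128830156-128830405, plus strand: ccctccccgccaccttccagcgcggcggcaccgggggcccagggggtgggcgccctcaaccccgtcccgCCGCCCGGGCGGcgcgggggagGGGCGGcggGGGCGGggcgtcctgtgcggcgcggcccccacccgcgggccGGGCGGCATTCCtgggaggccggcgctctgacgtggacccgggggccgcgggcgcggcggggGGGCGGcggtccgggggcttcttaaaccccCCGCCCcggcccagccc
MYH10, chr17:8630726-8630975, minus strand: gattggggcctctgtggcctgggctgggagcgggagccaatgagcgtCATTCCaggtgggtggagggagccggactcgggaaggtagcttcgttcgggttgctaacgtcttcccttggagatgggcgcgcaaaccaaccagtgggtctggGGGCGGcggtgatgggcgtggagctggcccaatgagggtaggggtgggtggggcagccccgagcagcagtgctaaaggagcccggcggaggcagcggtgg
MARCKS, chr6:113857095-113857344, plus strand: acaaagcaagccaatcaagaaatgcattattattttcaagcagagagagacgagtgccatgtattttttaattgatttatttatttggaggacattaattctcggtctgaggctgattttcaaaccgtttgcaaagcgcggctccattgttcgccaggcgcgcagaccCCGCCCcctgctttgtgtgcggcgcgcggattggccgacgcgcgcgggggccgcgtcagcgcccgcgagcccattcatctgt
DCC, chr18:52339947-52340196, plus strand: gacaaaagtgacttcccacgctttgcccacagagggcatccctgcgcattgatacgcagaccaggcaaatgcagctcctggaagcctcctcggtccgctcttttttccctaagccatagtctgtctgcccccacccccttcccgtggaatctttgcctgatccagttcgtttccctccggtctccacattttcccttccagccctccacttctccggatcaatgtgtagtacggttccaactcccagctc
FLNC held 38 CG pairs and 7 matches to GGGCGG, MYH10 16 pairs and 1 match, MARCKS 23 pairs and 1 match, and DCC 10 pairs and none. GGAATG was found once each at FLNC and MYH10, and TGANTCA at none of the 4. Of 27305 promoters of this length, 42.3% held GGGCGG, 6.6% TGANTCA and 11.9% GGAATG. Among the 9830 tested genes in that table, the median number of CG pairs was 21, compared with 18 for 616 genes that rose and 23 for 703 that fell. For GGGCGG, the shares were 66.6% of tested genes, 64.9% of genes that rose and 68.0% of genes that fell. For TGANTCA they were 4.06%, 6.66% and 4.41%, and for GGAATG 9.41%, 9.42% and 9.67%. These are matches of letters and not measured binding.

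Position in the genome moved with many of the falls. After the values were seen, 7 chromosome regions were set apart in which the median gene lay away from 0 in KDAC6H611A. On chromosome 18 the median log2 fold change of 230 tested genes was -0.76, a ratio of 0.59, and 118 of them (51.3%) fell while 4 rose. The medians were -0.43 on chromosome 13, -0.40 on chromosome 2 from 100 Mb, -0.40 on chromosome 7 up to 60 Mb and -0.35 on chromosome 20 up to 30 Mb. They were 0.32 on chromosome 3 up to 90 Mb and 0.35 on chromosome 7 from 60 Mb. The 5 lower regions held 9.13% of tested genes and 418 of the 919 genes that fell (45.5%), and the 2 higher regions held 6.08% of tested genes and 152 of the 895 that rose (17%). Outside all 7 regions, 718 of 12484 tested genes rose (5.75%) and 490 fell (3.93%).

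The shift of chromosome 18 was between -0.87 and -0.75 in each KDAC6H611A library, between -0.03 and 0.03 in WT and between 0.00 and 0.05 in KDAC6H216A. In KDAC8H143A the shift was -0.29 to -0.17 on chromosome 18 and -0.43 to -0.20 on chromosome 13. On chromosome 13 this overlapped the KDAC6H611A range of -0.53 to -0.39. On chromosome 2 from 100 Mb it was -0.31 to -0.11 in KDAC8H143A and -0.45 to -0.40 in KDAC6H611A. DNA was not measured here, and the part of gene copy number in these shifts was not tested. DCC rose although it lies on chromosome 18, and FLNC fell although it lies on the part of chromosome 7 whose median was higher. EPB41L3 and SERPINB5 are both on chromosome 18, and MYH10, CD9, PDPN, MARCKS, NFASC and SLITRK4 lie outside the 7 regions. Below, "shifted regions" means these 7.

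**Figure D2:**
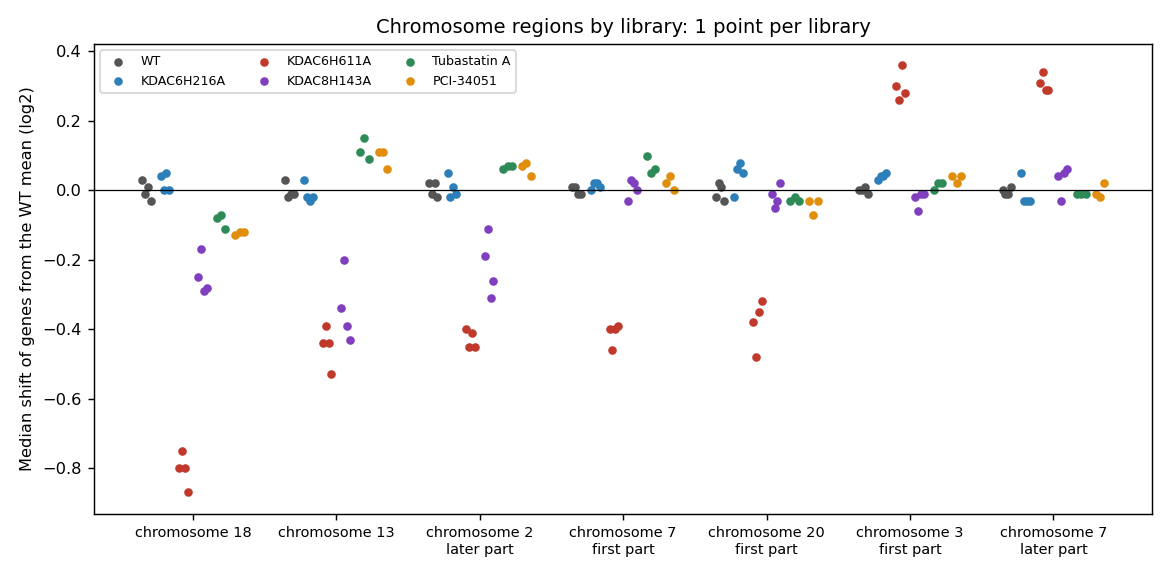
Median shift (log2) of genes with a mean of at least 5 CPM from the WT mean in the 7 chromosome regions, less the median outside them, with 1 point for each of the 22 libraries in 6 groups. The 4 KDAC6H611A libraries sit between -0.87 and -0.75 on chromosome 18 and between 0.26 and 0.36 on the first part of chromosome 3 (up to 90 Mb), apart from WT and KDAC6H216A. The first part of chromosome 7 ends at 60 Mb, that of chromosome 20 at 30 Mb, and the later part of chromosome 2 starts at 100 Mb.

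Cell adhesion genes moved in both directions. Cadherins bind cells to each other through calcium-dependent contacts, and desmosomal cadherins do so at desmosomes. Of 22 tested members of the list of classical and desmosomal cadherins, 4 rose and 6 fell (18.2% and 27.3%, against 6.08% and 6.24% of all genes), with a list median of -0.02. These shares over all genes are the background for each list below. Outside the shifted regions the background was 5.75% higher and 3.93% lower. DSG2, desmoglein 2, fell from 76.8, 85.8, 90.5 and 82.6 CPM to 19.6, 15.7, 22.3 and 17.5 CPM, by -2.15 ± 0.11 on the log2 scale (adjusted p = 1.88e-07). DSC2, its desmocollin partner, fell from 3.21 ± 0.363 to 0.413 ± 0.167 CPM, and DCHS1, a large protocadherin-type protein of planar polarity, from 3.81 ± 0.618 to 1.11 ± 0.64 CPM, called in 3 of the 8 fits that left out a library. CDH2, or N-cadherin, picked after its values were seen, fell by -1.08 ± 0.13. DSG2, DSC2 and CDH2 are on chromosome 18, where the median gene fell by -0.76. CDH13, the T-cadherin anchored to the membrane by lipid, rose from 120, 114, 117 and 115 CPM to 206, 197, 245 and 196 CPM. CDH4, retinal cadherin, rose by 1.41 ± 0.15, and CELSR2 by 0.59 ± 0.09.

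In the list of immunoglobulin-type and junction proteins, 12 of 47 tested members rose (25.5%) and 4 fell (8.51%), with a median of 0.20; the count of rises was 7, 5, 6 and 7 without WT replicate 2, 3 or 4 or KDAC6H611A replicate 1. JUP, the gene of plakoglobin, which links cadherins to the cytoskeleton, rose from 6.39, 5.43, 6.68 and 7.41 CPM to 21.0, 13.3, 23.7 and 24.7 CPM (1.69 ± 0.19). BCAM, a laminin receptor, rose by 2.06 ± 0.24, and CGN, the tight junction protein cingulin, by 1.83 ± 0.43 (adjusted p = 0.00913), a call kept in 2 of the 8 fits that left out a library. TJP1, the scaffold ZO-1 of tight junctions, fell from 87.3 ± 4.17 to 49.7 ± 4.33 CPM. GJB2, or connexin 26, fell from 5.33 ± 0.585 to 0.258 ± 0.181 CPM, and PTPRM, an adhesive receptor phosphatase, by -0.69 ± 0.09; GJB2 is on chromosome 13 and PTPRM on chromosome 18. Among protocadherins, 2 of 28 tested members were higher (PCDHGB5 and PCDH7) and 2 lower (PCDHGC3 and PCDHGB4), 7.14% in each direction. This was near the 6.08% and 6.24% of all genes. In the 8 leave-one-out fits PCDH7 was called in 5, PCDHGC3 in 6 and PCDHGB4 in 2. The variable exons of the PCDHG genes share their downstream exons, so counts among them are uncertain.

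Integrins and focal adhesion proteins join cells to the matrix, and 8 of 63 tested members rose and 8 fell (12.7% each). ITGB4, the integrin β4 of hemidesmosomes, rose from 3.68, 2.55, 3.12 and 2.86 CPM to 11.8, 10.9, 12.7 and 12.7 CPM (2.00 ± 0.17, adjusted p = 6.21e-06). ITGAX, integrin αX, rose by 2.64 ± 0.21 and PDLIM3 by 1.09 ± 0.24, the latter called in 4 of the 8 leave-one-out fits. ITGB2, the β2 chain with which αX pairs, fell from 13.9 ± 0.384 to 4.02 ± 1.22 CPM. TNS3 (tensin 3) and FERMT1 (kindlin 1, called in 5 of 8 such fits) also fell, by -0.99 ± 0.09 and -0.93 ± 0.18, and 5 of the 8 falls were in shifted regions, these 2 included. Without KDAC6H611A replicate 2 the counts were 16 and 13, and without WT replicate 2, 3 or 4 there were 5 rises.

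Among 87 tested extracellular matrix genes, 14 rose (16.1%) and 15 fell (17.2%). FBN2, which encodes fibrillin 2 of microfibrils, fell from 54.6, 57.5, 62.7 and 55.5 CPM to 10.3, 6.16, 11.6 and 10.2 CPM (-2.56 ± 0.15, adjusted p = 3.58e-07). EMILIN1 and EMILIN2, glycoproteins of elastic fibres, fell by -2.46 ± 0.41 and -2.93 ± 0.33. COL4A6, a basement membrane collagen chain, rose from 0.839 ± 0.378 to 7.59 ± 1.12 CPM, and MATN2 and COL16A1 rose by 2.06 ± 0.24 and 1.72 ± 0.30. The neighbouring COL4A5 rose by 1.38 and COL4A1 and COL4A2 fell by -1.04 and -0.69, the latter pair on chromosome 13; these 3 genes were chosen after their values were seen. Type IV collagen genes thus moved in opposite directions, and 6 of the 15 matrix genes that fell were in shifted regions.

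Serpins and extracellular proteases gave 9 rises and 7 falls among 51 tested (17.6% and 13.7%). MMP1, interstitial collagenase, rose from 49.2, 56.6, 48.8 and 56.0 CPM to 229, 161, 278 and 215 CPM (2.07 ± 0.15, adjusted p = 2.14e-06). MMP9, gelatinase B, rose by 2.41 ± 0.32 at a low level of 5.22 ± 1.55 CPM, and HTRA3 rose by 3.61 ± 0.44. TIMP3, an inhibitor of metalloproteinases bound to the matrix, fell by -1.41 ± 0.19, and ADAMTS18 from 14.7 ± 1.09 to 0.952 ± 0.263 CPM.

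**Figure D3:**
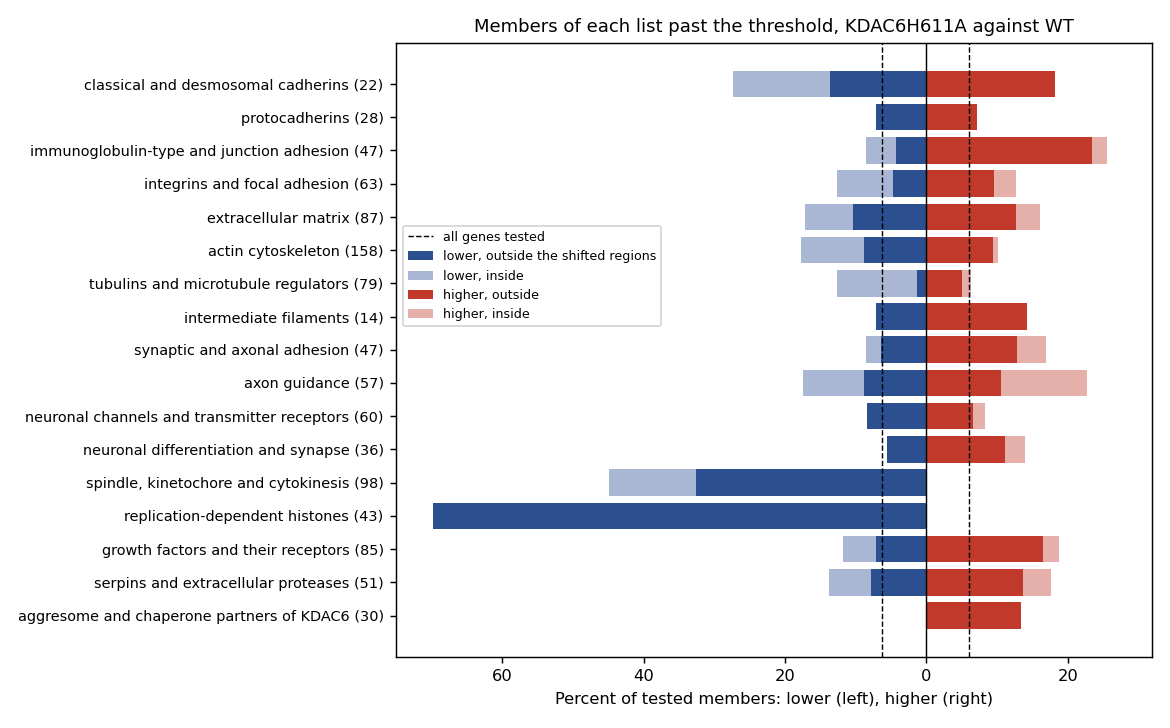
Percent of tested members of 17 gene lists that were lower (left) and higher (right) in KDAC6H611A, with members inside and outside the shifted chromosome regions in different shades, the number tested in brackets and the shares over all genes tested as dashed lines. Replication-dependent histones (69.8% lower) and spindle genes (44.9% lower) have no member that rose, while cadherins, matrix and axon guidance genes have members on both sides.

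Of 158 tested actin cytoskeleton genes, 28 fell (17.7%) and 16 rose (10.1%), with a median of -0.07. Of the 28, 12 were in lower regions, and of 128 tested members outside the shifted regions 14 fell and 15 rose. Scaling by total count gave 10 lower and 9 higher members, and 43 fell without KDAC6H611A replicate 2. Besides EPB41L3, FLNC and MYH10, whose values are given above, the list held rises of CORO6, a coronin, from 1.74 ± 0.362 to 7.03 ± 0.862 CPM, and of TAGLN, the smooth muscle protein transgelin, from 4.65, 6.76, 5.46 and 5.07 CPM to 18.1, 14.8, 16.8 and 19.9 CPM (1.65 ± 0.16). The light chains MYL12A and MYL12B, which pair with nonmuscle myosin heavy chains, fell by -0.98 and -1.42 on chromosome 18, whereas MYL9 rose by 0.93. ACTA2, smooth muscle actin, rose by 0.82. These last 4 were chosen after their values were seen.

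ARHGAP4 rose from 6.58, 7.31, 5.68 and 7.41 CPM to 71.8, 88.7, 52.2 and 86.8 CPM (3.46 ± 0.18, adjusted p = 1.82e-07). DOCK3 rose by 3.35 ± 0.26. It was at 46.5 CPM in KDAC6H611A replicate 2 and at 23.7 to 27.1 CPM in the other 3 libraries of the line.

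Tubulin is a substrate of KDAC6. Among 79 tested tubulins and microtubule regulators, 5 rose (6.33%, against 6.08% of all genes) and 10 fell (12.7%, against 6.24%). The share of rises was thus near that of all genes. Of the 10 falls, 9 were in shifted regions and only STMN3 was not. Outside these regions, 4 of 59 rose and 1 fell, against 5.75% and 3.93% of all genes there. The 10 falls became 4 to 6 on leaving out any WT library or KDAC6H611A replicate 1. MAP1A, a microtubule-associated protein of neurons, rose from 6.58, 7.53, 8.13 and 6.63 CPM to 30.8, 22.5, 34.1 and 28.6 CPM (2.00 ± 0.15). TTLL6, a tubulin polyglutamylase, was gained, and VASH1, a tubulin carboxypeptidase, rose by 1.16 ± 0.16. KATNAL1, a katanin-like severing protein, fell by -1.36 ± 0.16, STMN3, a stathmin that binds tubulin dimers, by -1.15 ± 0.15 and MAPRE2, an end-binding protein, by -0.97 ± 0.19, the last called in 3 of 8 leave-one-out fits. Among intermediate filaments, SYNM (0.97 ± 0.13) and KRT15 (0.79 ± 0.12) rose and KRT81 (-0.79 ± 0.17) fell, 2 higher (14.3%) and 1 lower (7.14%) of 14 tested. KRT81 was called in 2 of the 8 fits that left out a library, and in none without a WT library.

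The list of aggresome and chaperone partners of KDAC6 had 4 rises (13.3%, against 6.08% of all genes) and no fall (6.24% of all genes) among 30 tested, with 1 lower at an unadjusted p under 0.05 by edgeR and 0 called lower by DESeq2. DDIT4, an inhibitor of mTORC1 signalling, rose from 26.9, 24.8, 22.4 and 20.5 CPM to 92.6, 66.0, 93.2 and 111 CPM (1.95 ± 0.15), TXNIP, a binder of thioredoxin, by 1.43 ± 0.14 and DYNLL2, a dynein light chain, by 0.58 ± 0.09. The fourth was HSPA1B, whose counts overlapped between the groups, and it has a near-identical copy. DDIT4 and TXNIP are known as stress-induced regulators and not as aggresome or chaperone proteins. The share of 13.3% is therefore no result about aggresome or chaperone genes.

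Of 47 tested synaptic and axonal adhesion genes, 8 rose (17%) and 4 fell (8.51%). Of these, 2 rises were in the higher chromosome regions, and with the genes of the shifted regions left out of the fit 5 rose. The 4 falls became 2 without any WT library or KDAC6H611A replicate 1 and 7 without KDAC6H611A replicate 2. TENM1, teneurin 1, rose from 1.74, 1.44, 2.67 and 1.82 CPM to 28.6, 40.9, 25.5 and 23.9 CPM (3.92 ± 0.23, adjusted p = 4.23e-07). NCAM1, the neural cell adhesion molecule, went the other way, from 59.8 to 63.5 CPM in WT, down to 30.5, 25.1, 32.4 and 27.1 CPM (-1.08 ± 0.10). ELFN1, a synaptic leucine-rich repeat protein, fell to 0.346 ± 0.115 CPM from 3.25 ± 0.652 CPM, and MDGA1, a membrane-anchored immunoglobulin protein, fell by -1.19 ± 0.26, but was called in 1 of 8 leave-one-out fits.

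Axon guidance genes changed in both directions, 13 of 57 tested higher (22.8%) and 10 lower (17.5%), and 6 of the 13 rises were in the higher chromosome regions. Secreted semaphorins repel or attract growing axons, and SEMA3B rose from 3.87, 2.77, 3.34 and 3.12 CPM to 22.6, 26.1, 19.1 and 27.4 CPM (2.87 ± 0.17) on chromosome 3. SEMA5A, a membrane-bound semaphorin, fell from 24.9 ± 2.27 to 7.46 ± 1.66 CPM. The Eph receptors divided, with EPHB3 higher by 2.60 ± 0.35, EPHB1 lower by -2.02 ± 0.25 and EPHB6 lower by -2.05 ± 0.48. EPHB6 was near the floor in the mutant at 0.411 ± 0.30 CPM and was called in 2 of 8 leave-one-out fits.

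Channels and transmitter receptors of neurons gave 5 rises and 5 falls among 60 tested (8.33% each), not far from all genes. GABBR2, a subunit of the GABA-B receptor, rose from 0.424 ± 0.251 to 4.45 ± 0.877 CPM, and the potassium channels KCNN3 and KCNQ3 rose by 2.62 ± 0.38 and 2.10 ± 0.33. GABRA2, a GABA-A receptor subunit, fell from 2.63 ± 0.595 to 0.218 ± 0.121 CPM, KCNS3 by -1.72 ± 0.28 and KCNAB2 by -1.46 ± 0.14. Of 36 tested genes of neuronal differentiation and synapse, 5 rose (13.9%) and 2 fell (5.56%). LHX1, a homeobox factor, rose from 2.16 ± 0.494 to 6.15 ± 0.945 CPM beside ADARB2 and ISL1. DPYSL2 and DPYSL3, cytosolic mediators of semaphorin signalling, fell by -0.76 ± 0.12 and -0.64 ± 0.14, and DPYSL3 was called in 3 of 8 leave-one-out fits. The 6 neuronal markers at or under the floor, named above, are part of the list of which no tested member was called, so the gains were of single neuronal genes and not of that list.

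Growth factor genes and their receptors gave 16 rises (18.8%) and 10 falls (11.8%) among 85 tested. INHBE, an activin βE chain, rose from 1.74, 0.775, 0.668 and 1.17 CPM to 12.6, 8.59, 18 and 11.9 CPM (3.64 ± 0.31), while the activin chains INHBA and INHBB fell by -1.33 ± 0.13 and -1.54 ± 0.21. The Wnt receptor FZD3 rose by 2.30 ± 0.19 and IGFBP2, a binder of insulin-like growth factors, by 1.84 ± 0.31. EGFR, the receptor of epidermal growth factor, fell from 239, 262, 260 and 250 CPM to 137, 125, 149 and 133 CPM (-0.89 ± 0.10). EGFR, INHBA and INHBB are in shifted regions whose medians were -0.40. The 16 rises became 8 to 10 without WT replicate 2, 3 or 4 or KDAC6H611A replicate 1 or 4, and the 10 falls 4 to 6 without WT replicate 1, 2 or 3 or KDAC6H611A replicate 1.

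The most uniform falls were in genes of cell division. The mitotic spindle separates chromosomes that are held by kinetochores, and replication-dependent histone genes are transcribed during S phase. Of 98 tested spindle, kinetochore and cytokinesis genes, none rose and 44 fell (44.9%), with a median of -0.43, and 32 of 83 fell outside the shifted regions. At an unadjusted p under 0.05, 0 were higher and 79 lower by edgeR, and DESeq2 called 0 higher and 51 lower. NDC80, a kinetochore protein that holds microtubules, fell from 30.8, 30.8, 33.9 and 30.8 CPM to 13.7, 12.8, 13 and 13.3 CPM (-1.26 ± 0.10, adjusted p = 3.07e-06). HJURP, the chaperone of the centromeric histone, fell by -1.12 ± 0.09 and CENPU by -1.12 ± 0.10. Summed over the 98 genes, the level was 7774, 7806, 7946 and 7564 CPM in WT and 5671, 5146, 5781 and 5723 CPM in the mutant, so the groups did not overlap.

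Of 43 tested replication-dependent histone genes, 30 fell (69.8%) and none rose, all outside the shifted regions, with a median of -0.80. At an unadjusted p under 0.05, edgeR gave 0 higher and 36 lower, and DESeq2 called 0 and 32. Their summed level was 3878, 4789, 4593 and 4592 CPM in WT and 2558, 2042, 2707 and 3062 CPM in KDAC6H611A. HIST1H2AE fell from 42.6 ± 7.11 to 18 ± 3.97 CPM (-1.23 ± 0.16), HIST1H2BB by -1.19 ± 0.18 and HIST1H4J by -1.08 ± 0.11. Histone genes have near-identical copies, so single values are less certain than the list. Replicate 2, the library with the most mitochondrial rRNA, was the lowest of the 4 in both sums, and without it 58 spindle and 33 histone genes fell. Without WT replicate 2, 3 or 4 or KDAC6H611A replicate 1, 24, 23, 29 and 27 spindle genes fell and 19 histone genes in each case, and scaling by total count gave 10 and 8. Cell numbers, growth rate and cell cycle phase were not measured here, and their part was not tested.

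**Figure D4:**
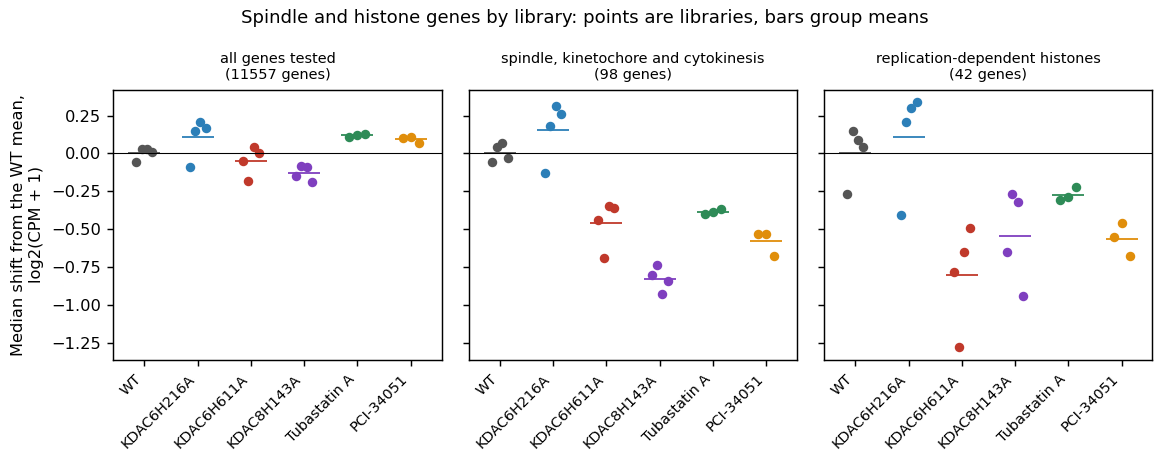
Median shift from the WT mean in log2(CPM + 1) of all tested genes, 98 spindle genes and 42 histone genes with a mean of at least 5 CPM, with 1 point per library in 6 groups and the group mean as a bar. The KDAC6H611A libraries lie at -0.69 to -0.35 for spindle and at -1.28 to -0.49 for histone genes, and KDAC8H143A and the inhibitor groups also lie below 0. For histone genes WT replicate 1 lies at -0.27, inside the Tubastatin A range of -0.31 to -0.22, and KDAC6H216A replicate 1 at -0.41.

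These 2 lists were not lower in KDAC6H611A alone. Relative to the WT mean, spindle genes had a median shift of -0.69 to -0.35 in KDAC6H611A libraries, of -0.93 to -0.74 in KDAC8H143A, -0.40 to -0.37 with Tubastatin A, -0.68 to -0.53 with PCI-34051 and -0.13 to 0.31 in KDAC6H216A. The WT libraries themselves were at -0.06 to 0.07 for spindle genes and at -0.27 to 0.15 for histone genes. For histone genes the KDAC6H611A values were -1.28 to -0.49, those of KDAC8H143A -0.94 to -0.27 and those of KDAC6H216A -0.41 to 0.34. With Tubastatin A they were -0.31 to -0.22, overlapping the WT range, and with PCI-34051 -0.68 to -0.46, below it. The KDAC8H143A range reached the WT range. The groups share the WT libraries as their reference, and the inhibitor libraries were deeper, at 24315766 to 29862665 total counts.

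KDAC6H611A was then compared with KDAC6H216A, the line with the other catalytic domain of KDAC6 inactivated, in a fit of those 8 libraries. The KDAC6H216A cells were a pool of independent lines. A difference between the domains and a difference between colonies therefore cannot be told apart here. Of 14961 genes tested, 1485 (9.93%) differed, 690 higher (4.61%) and 795 lower (5.31%) in KDAC6H611A. Spindle genes were lower at 42 of 98 and histone genes at 24 of 44, none was higher, and the medians were -0.58 and -0.86. The fit reuses the KDAC6H611A libraries by which the named genes were chosen, so their directions here are no independent evidence. EMILIN1 and CDR1-AS were not tested. Named genes that did not differ from KDAC6H216A by the test included PCDH7 (0.55 ± 0.29, adjusted p = 0.223), CDH4 (0.42 ± 0.15, 0.0759), CELSR2 (0.23 ± 0.08, 0.0736), MDGA1 (-0.20 ± 0.31, 0.677), DCHS1 (0.43 ± 0.56, 0.613) and STMN3 (-0.44 ± 0.14, 0.0498). HDAC6 was higher in KDAC6H611A than in KDAC6H216A, by 1.13 ± 0.18 (adjusted p = 0.00187), so the lines differed in the level of the mutated gene as well as in the domain.

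All 6 groups were also placed in 1 fit, which again shares the KDAC6H611A libraries. Of 18480 genes, the shares called in either direction were 11.3% against WT, 18.3% against KDAC6H216A, 52.8% against KDAC8H143A, 33.9% against Tubastatin A and 29.6% against PCI-34051. Divided by direction, 5.43% were higher and 5.9% lower than in WT, 7.56% and 10.7% against KDAC6H216A, 26.7% and 26.1% against KDAC8H143A, 13.9% and 20.1% against Tubastatin A, and 12.2% and 17.4% against PCI-34051. On the scale of this fit, EPB41L3 was at 186 CPM (178 to 194) in WT, 121 (97.9 to 135) in KDAC6H216A, 155 (130 to 180) in KDAC8H143A, 185 (181 to 190) with Tubastatin A and 140 (133 to 144) with PCI-34051, and at 0 in KDAC6H611A. FLNC was at 82.1 CPM in KDAC6H216A and at group means of 144 to 155 CPM in the others except KDAC6H611A, where it was at 0.22 CPM. SLITRK4 was at 9.5 CPM in KDAC6H611A and at most 0.626 CPM in any library of another group. ARHGAP4 was at 81.3 CPM (59.0 to 96.8) in KDAC6H611A and between 2.08 and 10.0 CPM in all other libraries. These 4 genes differed between KDAC6H611A and each other group, the adjusted p-values for SLITRK4 being 4.34e-07 or less.

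Other genes were shared with another group. NFASC was higher in KDAC8H143A, at 25.9 CPM (22.7 to 27.6), than in KDAC6H611A, at 9.75 CPM (8.05 to 10.8), and near 0 elsewhere. MARCKS was at 9.95 CPM (7.56 to 13.3) in KDAC6H611A, at 6.89 CPM (5.88 to 7.59) with Tubastatin A and at 6.83 CPM (5.39 to 8.85) with PCI-34051, and these differences did not pass the test (adjusted p = 0.0914 and 0.0924). CD9 and EDNRA had at most 0.168 CPM in any KDAC6H611A or KDAC8H143A library, and the test did not separate these lines (adjusted p = 0.41 and 0.691). TENM1 was highest in KDAC6H611A at 32.2 CPM, but it was also at 10.9 CPM with Tubastatin A and 9.22 CPM with PCI-34051, against 2.14 CPM in WT. MMP1 was highest in KDAC6H611A at 242 CPM, with 58.5 CPM in WT and 3.89 and 3.27 CPM in KDAC6H216A and KDAC8H143A. NCAM1 was lowest in KDAC6H611A, at 31.4 CPM (26.0 to 36.6) against 57.7 to 112 CPM in all other libraries.

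**Figure D5:**
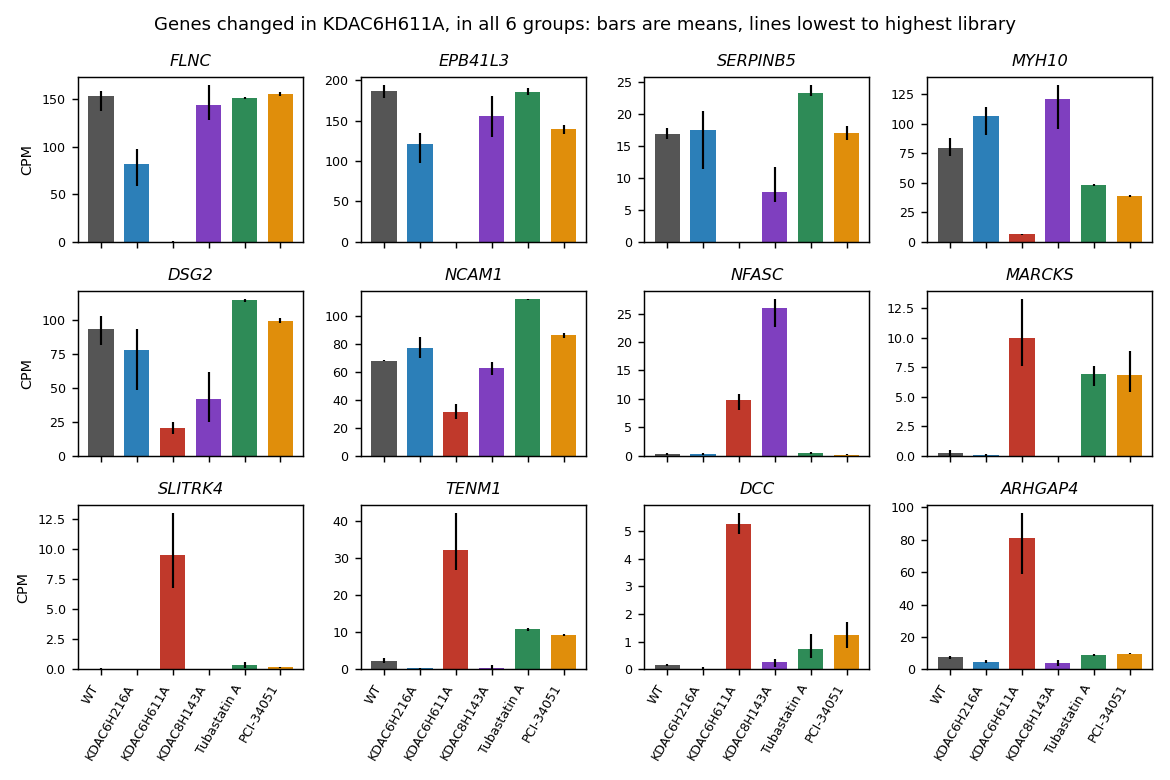
Mean level in CPM of 12 genes in the 6 groups, with a line from the lowest to the highest library of each group. EPB41L3, FLNC and SERPINB5 are at or near 0 in KDAC6H611A alone, and SLITRK4, TENM1 and ARHGAP4 are highest there. NFASC is also raised in KDAC8H143A, and MARCKS and TENM1 are also above WT in the inhibitor groups.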

How the data were processed

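Gene expression was measured in 22 HT1080 libraries. Per the labels, the authors depleted rRNA, sequenced paired ends, trimmed reads with Trimmomatic 0.39, aligned them to GRCh38 with Bowtie2 2.4.5, counted with RSEM 1.3.3 and used DESeq2 1.38.2. The deposited values are RSEM's expected counts per gene, not scaled for depth or length. The annotation release and strand setting are not given in the sources used here.

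Expected counts were rounded. KDAC6H611A was compared with WT, and with KDAC6H216A, in fits of 4 against 4 libraries (edgeR 4.0.16, filterByExpr, TMM, glmQLFit and glmQLFTest, R 4.3.3), p-values were adjusted by the Benjamini-Hochberg method, and the threshold was 0.01. A fit of all 6 groups gave the other contrasts. The SE was the log2 fold change over the square root of F, and for genes with few counts in a group it can understate the counting error. Levels are CPM with TMM scaling, and bounds used a floor of 3 counts per library averaged over the group (0.409 CPM in WT, 0.352 CPM in KDAC6H611A). Region shifts used log2(CPM + 0.5) and list shifts log2(CPM + 1). Of 60675 genes, 56558 matched GENCODE 44 by identifier. Python 3.11.15, pandas 2.3.3 and matplotlib 3.10.9 made summaries. The floor covers counting error only.

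Lists and members were chosen with earlier results of these data known. The counts of 1 gene list are not reported here. Named genes were HDAC6, the 10 largest rises and falls, and up to 3 rises and falls of each list, among called genes whose groups did not overlap and whose higher mean was 1 CPM or more. The study calls its replicates biological, and whether same-numbered ones were prepared together is not given. On simulated data with 200 changed genes, edgeR recovered 99% of changes of 1 and 100% of changes of 2 on the log2 scale, with 1.49% of calls false, in 14578 genes of the comparison with WT. The changed genes were drawn from those at higher levels, and no outlying library or shifted region was simulated. These rates therefore do not carry over to genes at low levels or to the spread of the real libraries. Alternatives were DESeq2 1.42.0, other scalings and filters, a correction for GC content and length (mgcv 1.9.3), the replicate block and leaving out each library.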

Additional observations from a re-analysis of the deposited data

Results flagged for a closer look

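Among 218 groups of 4 libraries, 10 held a library far from the other 3 by Dixon's criterion, and chance flags about 1 in 20 groups (5%). ZNF790 was at 0.13 CPM in WT replicate 4 and TMEM179 at 0.194 CPM in WT replicate 1, with no counts in the other WT libraries. DOCK3 was at 46.5 CPM in KDAC6H611A replicate 2 against 23.7 to 27.1 CPM in the other 3, and MDGA1 at 9.4 CPM there against 3.66 to 4.15 CPM. CELSR2 was at 26.0 CPM and INHBB at 7.8 CPM in WT replicate 4, against 24.0 to 24.1 CPM and 6.19 to 6.31 CPM. NDC80 was at 33.9 CPM in WT replicate 3 and at 30.8 CPM in the others. PLXDC2 and EDNRA were each at 0.162 CPM in KDAC6H611A replicate 2 and BEX1 at 0.122 CPM in KDAC6H611A replicate 1, with no counts in the other 3 libraries. Of the 10, 4 were in KDAC6H611A replicate 2, which also had the most mitochondrial rRNA.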

How the results depend on the processing

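Of the 106 named genes called against WT, 83 were called in the same direction in every alternative that tested them and 94 in every fit that left out a library, and no direction was reversed. The number of genes changed against WT, 1814, was 913 with the total count only, 3383 at an adjusted p of 0.05, 738 with a minimum absolute log2 fold change of 1 and 1120 with the genes of the 7 shifted chromosome regions left out, an alternative chosen after seeing the data. It ranged from 1122 (without WT replicate 3) to 2908 (without KDAC6H611A replicate 2), with 1125 without WT replicate 2. Against KDAC6H216A, 1485 genes became 2492 with DESeq2, 781 with the total count only, which shifted the median of all genes to -0.12, and 3109 at an adjusted p of 0.05. Without a filter that median was 0.14. Leaving out a library gave 772 to 3041. The lowest was without KDAC6H216A replicate 2 and the highest without KDAC6H216A replicate 1, and counts without KDAC6H216A replicates 3 and 4 and KDAC6H611A replicates 1 and 4 were 795, 779, 803 and 912. The cause was not tested. The 2 rises and 2 falls of protocadherins, the 2 falls of neuronal differentiation genes and the 2 melanocytic rises each became 1 or 0 on leaving out at least 1 WT library, and 4 neuronal differentiation genes fell and 15 protease genes rose without KDAC6H611A replicate 2.

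Same-numbered WT and KDAC6H611A libraries had correlations of -0.031, -0.2, 0.254 and 0.085 of their deviations. Whether the numbers pair the samples cannot be told from so few values. With the replicate block, 1559 genes were changed against WT, 1451 with the block and the correction for GC content and length, and 930 against KDAC6H216A. WT libraries 3 and 4 deviated most like the KDAC6H611A library of their own number and libraries 1 and 2 did not. At 5248953 to 12752463 counts, genes under about 1 CPM rest on few reads.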

Other observations

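Other genes crossed the floor of 3 counts per library, and all named here were chosen after their values were seen. Among the 32 gained genes were LAPTM5, a lysosomal membrane protein, CLEC5A, a lectin of myeloid cells, and PTGS1, or cyclooxygenase 1, with lower bounds of 7.97-fold, 7.14-fold and 6.31-fold. The zinc finger genes ZNF790, ZNF582, ZNF44 and ZNF799, all on chromosome 19, were gained, by at least 6.1-fold, 6.19-fold, 5.5-fold and 3.29-fold. Synaptic release genes among the gained were DOC2A (at least 8.48-fold) and ERC2 (4.36-fold).

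Lost genes included GDNF, a survival factor of neurons, at least 7.63-fold lower, the Notch ligand DLL1 (5.71-fold), the transcription factors SOX7 (9.49-fold) and PRDM1 (7.79-fold) and the mechanically gated channel PIEZO2 (5.61-fold), the last on chromosome 18. Of the deacetylases, HDAC9 fell from 46.6 ± 1.70 to 24.4 ± 2.34 CPM, by -0.94 ± 0.10 on the log2 scale (edgeR adjusted p = 2.7e-05), and it lies in the part of chromosome 7 whose median was -0.40. HDAC8 was at 11.5 ± 0.737 CPM in WT and 11.5 ± 2.39 CPM in KDAC6H611A.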
